A study of Rattus norvegicus with 24 samples.

Results

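The livers of 6 rats fed low copper with 10% sucrose were compared with those of 6 rats fed adequate copper with 30% sucrose. These were 12 of the 24 arrays of the series, chosen by the diet named in the sample labels. The 2 diets each carry 1 of the changes of the study: copper was withdrawn in one, and sucrose was raised in the other. Which liver genes separate a lack of copper from an excess of sucrose was the question asked here.

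All animals were male Wistar rats that had eaten a standard rodent chow until 6 months of age. They then received purified diets built on the AIN76A formulation for 12 weeks, and the labels give an age of 9 months. Low copper meant less than 0.3 mg/kg, and adequate copper, called high copper in the labels, meant 125 mg/kg. Starch and dextrin made up the difference in carbohydrate. The other 2 diets, used here as reference levels only, were adequate copper with 10% sucrose (the control diet) and low copper with 30% sucrose (both changes together). In what follows, low copper rats are those on 10% sucrose and high sucrose rats are those on adequate copper. The compared diets differ in both nutrients, so a difference between them cannot be assigned to copper or to sucrose. The rats were housed singly, and each array held total RNA of 1 liver, labelled with Cy3 on a one-colour array. Levels are means over all cells of the tissue, and fewer cells of a type and less RNA per cell cannot be told apart.

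Copper is a cofactor of cytochrome c oxidase, of the superoxide dismutase Sod1 and of ceruloplasmin, the ferroxidase that the liver secretes into plasma. The liver takes copper up through Slc31a1, hands it to chaperones, exports surplus through Atp7b, and stores metal on metallothioneins. Sucrose brings fructose, which ketohexokinase traps in the liver, where its carbon feeds glycolysis and fatty acid synthesis. Sterol-sensing factors govern the genes of cholesterol synthesis, and PPAR alpha governs many genes of fatty acid oxidation.

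Every level is a log2 signal from which the 75th percentile of its own array was subtracted. Every difference is low copper minus high sucrose in log2 units, followed by its 95% interval. That percentile ranged from 432.8 to 1013 on the 12 arrays, where the median local background was 38 to 45.5, and between 61.4 and 73.4% of probes exceeded background clearly. All 22 hepatocyte markers looked for were measured, and their mean level per rat ran from 4.26 to 4.66 on low copper and from 4.22 to 4.67 on high sucrose. The arrays lay on 3 slides. High sucrose rats 1 and 2 lay on slide 1, high sucrose rats 3 to 6 and low copper rats 1 to 4 on slide 2, and low copper rats 5 and 6 on slide 3. Only slide 2 held both diets, 4 against 4, and for many genes and lists its values stand beside those of the full comparison. On slide 2 the low copper arrays had 1 or 2 as the second number of their array position and the high sucrose arrays 3 or 4, so diet and that position cannot be told apart there. Rat 5 on high sucrose and rat 2 on low copper, both on slide 2, stood above the rest of their diets in acute phase genes, neutrophil markers and macrophage markers. Their mean acute phase levels were 6.90 and 6.52, against at most 5.95 and 5.80 in the other rats of their diets. Over all genes, low copper rat 6, on slide 3, lay farthest from its diet. It was more than 1 log2 unit from the median of the other 5 rats in 2313 genes, against 1485 for rat 2 and 1250 for rat 5, and it had the lowest array weight in limma (0.417). Values without some of these rats are given beside many of the genes and lists in which they stood apart.

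No gene passed the threshold. Of 18641 genes tested in limma, 0 had an adjusted p under 0.05 (0% called in either direction), and the lowest adjusted p was 0.99998. At an unadjusted p under 0.05 there were 294 genes (1.58%), of which 171 (0.917%) had the higher mean on low copper and 123 (0.66%) the lower. Were no gene to differ, a share of about 0.05 would be expected under that threshold. The 294 genes are therefore no surplus. The median difference over all genes was 0.01. On slide 2 alone, 0 genes passed as well, with a lowest adjusted p of 0.44. There, 1413 genes (7.58%) had an unadjusted p under 0.05, 1295 of them (6.95%) higher on low copper and 118 (0.633%) lower, and the median over all genes was 0.08. With quantile normalization the slide 2 median was 0.00, and 700 of 1084 such genes were higher. With the deposited values of the authors it was 772 of 1119. In simulated data of the same size, the fit of 24 arrays found 28.4% of changes of 0.5, 68.7% of changes of 1 and 97% of changes of 2 log2 units among 200 changed genes. The slide 2 fit found 0%, 31.3% and 81.8%. A count of 0 therefore leaves room for moderate changes, and the genes below are described by their levels.

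The genes with the smallest unadjusted p, the same sign on slide 2 and a signal well above background in all 6 rats of at least 1 diet were examined first. None of them passed. Panx1 encodes a membrane channel that releases ATP. Its probe lies on chromosome 8 from 11810732 to 11810791 in rn4. Panx1 ran from -1.44 through a median of -1.18 to -0.68 on low copper and from -2.41 through -1.60 to -1.13 on high sucrose. The groups overlapped, with 3 low copper rats above every high sucrose rat. The difference was 0.55 (0.21 to 0.89), or 1.47 times, and 0.39 (-0.20 to 0.98) on slide 2. The control diet gave -1.28 ± 0.16 and the diet with both changes -1.39 ± 0.18 (SD over 6 rats), both nearer to the low copper mean of -1.13 than to the high sucrose mean of -1.68.

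Ppif, Rgn and Trpv4 were among the genes with the higher mean on low copper. Ppif encodes cyclophilin D, a regulator of the mitochondrial permeability pore. It ran from 3.08 through 3.32 to 3.56 on low copper and from 2.69 through 2.95 to 3.38 on high sucrose, a difference of 0.35 (0.12 to 0.57). All 6 low copper rats lay above the high sucrose mean, and high sucrose rat 1, on slide 1, lay above 3 of them. On slide 2 the difference was 0.52 (0.17 to 0.88). Rgn, the calcium-binding protein regucalcin that also serves vitamin C synthesis, ran from 3.83 through 4.34 to 4.63 against 3.41 through 3.89 to 4.24. On slide 2 the 4 low copper rats all lay above the 4 high sucrose rats, and the differences were 0.41 (0.13 to 0.68) in full and 0.53 (0.10 to 0.96) on that slide. Ppif stood at 3.51 ± 0.10 on the control diet and 3.40 ± 0.10 with both changes. Rgn stood at 4.42 ± 0.16 and 4.51 ± 0.12 in the same order. For both genes the high sucrose diet had the lowest mean of the 4 diets.

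Trpv4, a calcium-permeable channel opened by stretch and warmth, ran from -3.88 through -2.94 to -2.52 on low copper and from -4.03 through -3.75 to -3.09 on high sucrose. Low copper rat 6, on slide 3, was the single low value. On slide 2 the 4 low copper rats stood above the 4 high sucrose rats without overlap. The difference was 0.65 (0.19 to 1.11), 0.76 (0.30 to 1.21) on slide 2, and 0.83 without rat 6. Smaller differences of the same sign were seen for the mismatch repair gene Pms2 (0.36, 0.13 to 0.59), for Prepl (0.36, 0.10 to 0.62) and for Gltpd1, now Cptp, a ceramide-1-phosphate carrier (0.28, 0.07 to 0.48). Pik3r6, a regulatory subunit of phosphoinositide 3-kinase, differed by 0.80 (0.25 to 1.36).

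**Figure D1:**
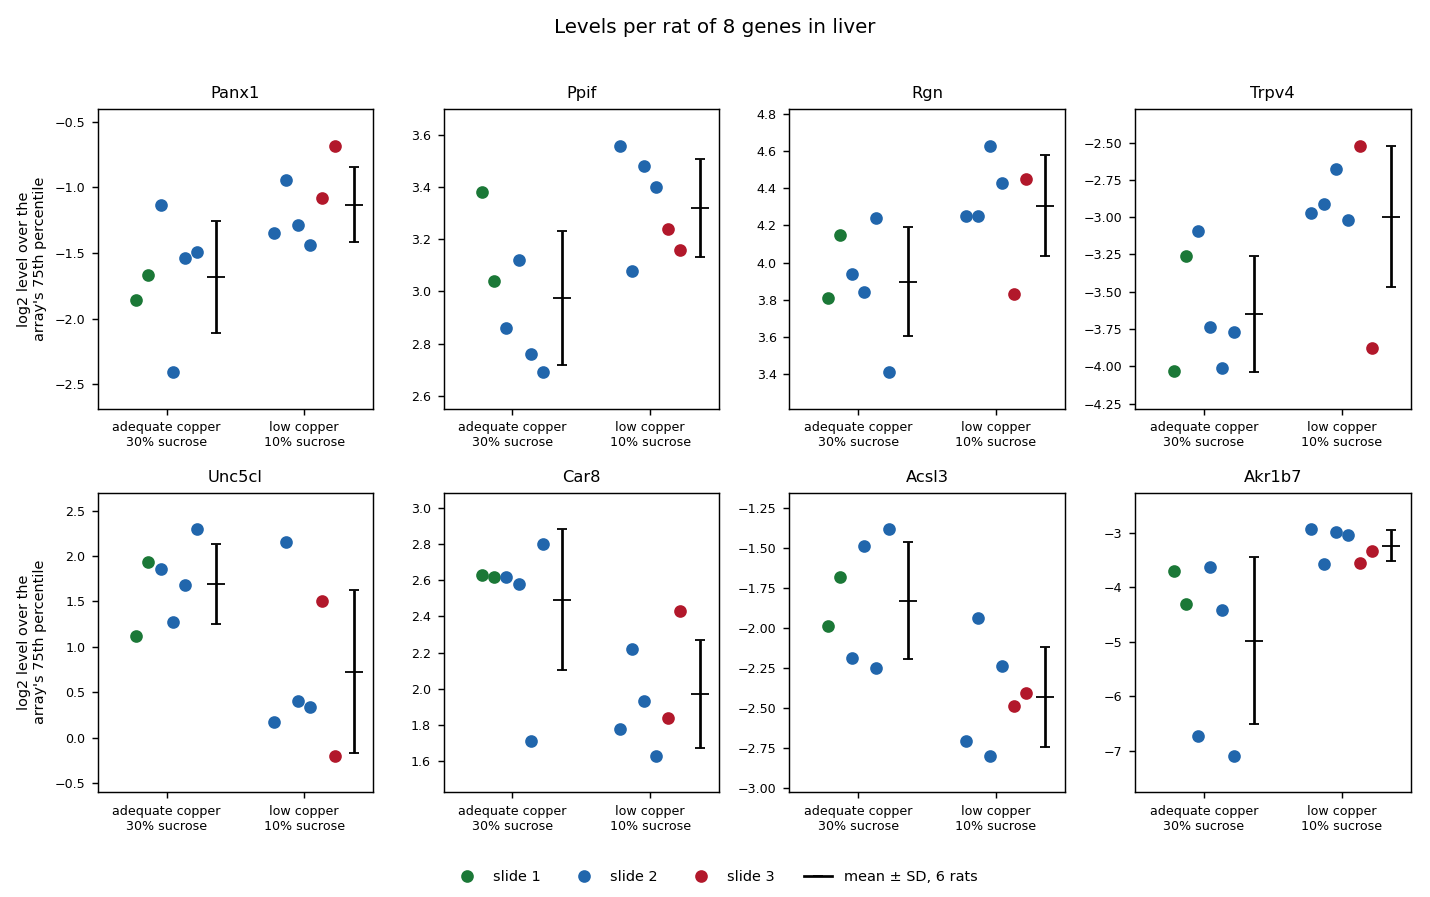
Level of 8 genes in each rat (vertical axis, log2 over the array's 75th percentile) by diet, coloured by slide, with mean and SD over 6 rats beside the points. Ppif, Rgn and Trpv4 had higher means on low copper, Car8 and Acsl3 lower, and of the 8 genes shown the groups did not overlap for Akr1b7 alone.

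Among the 10 genes of smallest p with the lower mean on low copper was RGD1559482, now Igsf7 l1, an immunoglobulin superfamily gene. It ran from -7.10 through -4.60 to -3.63 on low copper and from -3.90 through -3.00 to -2.09 on high sucrose. The signal was well above background in 4 of the 6 low copper rats and in all 6 high sucrose rats. The difference was -2.14 (-3.39 to -0.89), and -1.52 (-2.43 to -0.61) on slide 2. The control diet, at -5.32 ± 1.0, and the diet with both changes, at -6.05 ± 1.20, lay with the low copper rats or below them.

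Unc5cl, a membrane protein related to the netrin receptors, ran from -0.20 through 0.37 to 2.15 on low copper and from 1.12 through 1.77 to 2.30 on high sucrose. Low copper rats 2 and 5 lay among the high sucrose rats, and the other 4 lay below all of them. The difference was -0.97 (-1.59 to -0.34), and -1.25 without the 2 rats that stood apart. Car8, a carbonic anhydrase relative without catalytic activity, ran from 1.63 through 1.89 to 2.43 against 1.71 through 2.62 to 2.80. High sucrose rat 5 was its single low value in that diet. The Car8 difference was -0.52 (-0.87 to -0.18), and -0.73 without the 2 rats.

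Acsl3 activates long-chain fatty acids at the endoplasmic reticulum and at lipid droplets. It ran from -2.80 through -2.45 to -1.94 on low copper and from -2.25 through -1.84 to -1.38 on high sucrose, a difference of -0.60 (-1.03 to -0.17). All 6 low copper rats lay below the high sucrose mean, and the groups overlapped. The control diet stood at -2.53 ± 0.49 and the diet with both changes at -1.95 ± 0.28, so the means of the diets with 30% sucrose were the higher pair. Rbp7, a retinol-binding protein, differed by -0.96 (-1.64 to -0.27), -1.28 (-2.45 to -0.11) on slide 2, and -1.03 without the 2 rats that stood apart there. Il1f8, now Il36b, a cytokine of the IL-1 family, differed by -0.43 (-0.72 to -0.14). Ttc39a differed by -0.41 (-0.71 to -0.12) and A26c2 by -0.51 (-0.87 to -0.14).

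In 6 genes the 6 low copper rats and the 6 high sucrose rats did not overlap, 3 higher on low copper (0.0161% of the genes tested) and 3 lower (0.0161%). They were picked out after their values were seen, and none passed the test. Among 18641 genes some are separated in this way by chance alone, so the separation is not by itself a difference between the diets. Akr1b7, an aldo-keto reductase, ran from -3.58 through -3.19 to -2.93 on low copper and from -7.09 through -4.36 to -3.62 on high sucrose. High sucrose rats 3 and 6, at -6.73 and -7.09, set most of that spread, and 4 of the 6 high sucrose rats were well above background. The difference was 1.74 (0.28 to 3.21), and 2.33 (0.72 to 3.94) on slide 2. Stat2, a transcription factor of the interferon response, ran from 3.18 through 3.27 to 3.34 against 2.92 through 3.11 to 3.15. Every low copper rat lay above every high sucrose rat, by a narrow margin, and the difference was 0.20 (0.02 to 0.38). The control diet gave 3.20 ± 0.20 for Stat2, a spread as wide as that difference. Vom1r100, a vomeronasal receptor gene, was well above background in 5 low copper and 4 high sucrose rats and differed by 0.58 (0.10 to 1.06). RGD1310587, now C13h1orf115, differed by -0.22 (-0.46 to 0.03), and the other two lower genes were transcripts without a symbol.

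Slide 2 had a wide surplus of genes with higher values on low copper. In 574 genes (3.08%) its 4 low copper rats lay above its 4 high sucrose rats, and in 66 genes (0.354%) below. Of those 574 genes, 361 were among the 6213 dimmest genes, where the slide 2 median was 0.19, against 0.05 in the 6214 brightest. Among the dimmest genes the low copper arrays of slide 2 stood 0.41 above those of slide 3, by the median gene, and among the brightest the same median was -0.04. Zfp12, a zinc finger gene, is an example. On slide 2 it stood at -3.23, -2.58, -2.99 and -3.01 in low copper rats 1 to 4 and at -4.34, -4.21, -3.86 and -4.43 in high sucrose rats 3 to 6. Low copper rats 5 and 6, on slide 3, stood at -4.28 and -4.65, level with the high sucrose rats. The Zfp12 difference was 1.26 (0.84 to 1.67) on slide 2 and 0.67 (0.08 to 1.26) in full. Il36g, a second IL-36 cytokine, showed the same layout, but its probe was well above background in only 4 low copper and 3 high sucrose rats. Its difference was 0.93 (0.64 to 1.23) on slide 2 and 0.20 (-0.50 to 0.90) in full. Spry3, of the Sprouty family of growth factor signalling inhibitors, differed by 0.71 (0.43 to 1.0) on slide 2 and by 0.21 (-0.45 to 0.86) in full. Dscc1, which helps join sister chromatids, was well above background in 3 low copper and 4 high sucrose rats and differed by -0.74 (-1.14 to -0.33) and -0.42 (-0.95 to 0.10).

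**Figure D2:**
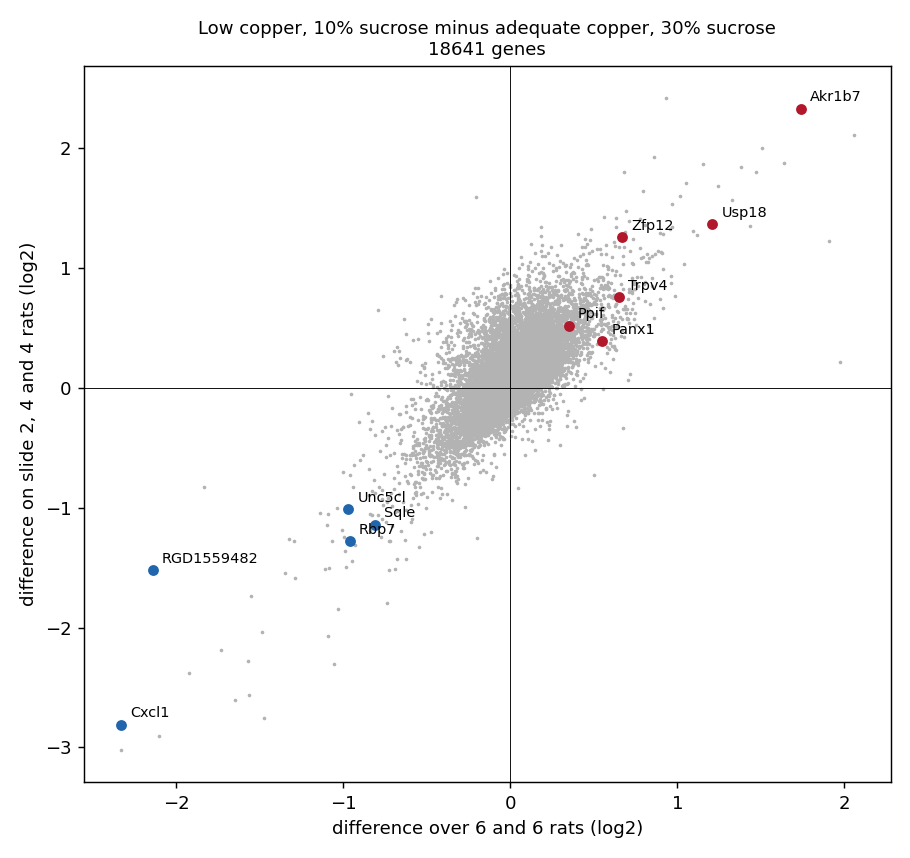
Difference of each of 18641 genes over 6 and 6 rats (horizontal axis) and on slide 2 alone (vertical axis), both in log2, low copper minus high sucrose. The axes share 8 of 12 arrays, so the slope is built in, and the cloud sits above the horizontal axis, with a slide 2 median of 0.08 against 0.01 in full.

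Metallothioneins bind copper and zinc, and the factor Mtf1 drives them through metal response elements. The 250 bases before the start of Mt1 (named Mt1a on the array) and of Mt2A are shown because these are the best known metal-responsive promoters. Both come from RefSeq in the build GRCr8, on the minus strand of chromosome 19, at chr19:10832976-10833225 and chr19:10838709-10838958, and are printed 5′ to 3′. Capitals mark every match to the core of the element, searched as TGCACNC and TGCGCNC on both strands.
Mt1: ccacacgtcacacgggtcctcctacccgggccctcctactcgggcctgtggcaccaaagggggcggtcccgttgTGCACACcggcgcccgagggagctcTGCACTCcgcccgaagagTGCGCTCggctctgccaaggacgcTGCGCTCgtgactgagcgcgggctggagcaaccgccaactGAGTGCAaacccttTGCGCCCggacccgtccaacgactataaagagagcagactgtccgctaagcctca
Mt2A: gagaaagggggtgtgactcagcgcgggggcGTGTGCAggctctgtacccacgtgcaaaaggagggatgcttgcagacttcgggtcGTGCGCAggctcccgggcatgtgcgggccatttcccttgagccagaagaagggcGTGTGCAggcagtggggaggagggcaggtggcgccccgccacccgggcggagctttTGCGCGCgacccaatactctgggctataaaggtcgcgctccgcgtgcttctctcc
The Mt1 window held 6 matches and the Mt2A window 4. Of 33469 promoter windows of the same length, 20.6% held at least 1 match, 0.266% held at least 4 and 0.0269% at least 6. A match is a description of letters and not a measured binding site.

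The metallothionein levels overlapped widely between the compared diets. Mt1a ran from 4.55 through 5.45 to 6.65 on low copper and from 5.02 through 5.50 to 8.25 on high sucrose. High sucrose rat 5 was the single high value, and the medians differed little. The difference was -0.42 (-1.32 to 0.48), -0.18 on slide 2, and -0.18 in full without the 2 rats that stood apart. Mt2A ran from 2.12 through 2.94 to 4.64 against 2.76 through 3.53 to 7.18, with the same rat 5 on top. Mt2A differed by -0.78 (-1.91 to 0.34), by -0.83 on slide 2, and by -0.43 in full without the 2 rats. Both intervals include 0, and both include a level 2 times lower on low copper.

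The copper list was, by its median, close to level between both diets in the full comparison. It joins genes of copper uptake, transfer and export with copper enzymes, metallothioneins and Steap reductases, among others. Of the 31 genes measured on the copper list, 16 had the higher mean on low copper and 15 the lower, with a median of 0.00, and 0 passed. On slide 2 the copper list had 14 higher and 17 lower, with a median of -0.02 against 0.08 over all genes. After quantile normalization on that slide, 8 were higher and 23 lower, with a median of -0.08 against 0.00 over all genes. The importer Slc31a1 differed by 0.01 (-0.26 to 0.28), the exporter Atp7b by -0.01 (-0.24 to 0.22), the chaperone Ccs by -0.02 (-0.27 to 0.23) and Sod1 by 0.03 (-0.20 to 0.25). These intervals bound a change in either direction to about 0.3 log2 units. Cox11, an assembly factor that delivers copper to cytochrome c oxidase, differed by 0.25 (0.00 to 0.50), but 1 of its 2 other probes had the opposite sign.

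Ceruloplasmin, encoded by Cp, ran from 6.23 through 6.79 to 8.23 on low copper and from 6.99 through 7.27 to 8.50 on high sucrose. Apart from low copper rat 2, every low copper rat lay below every high sucrose rat. The difference was -0.50 (-1.05 to 0.05), -0.61 (-1.61 to 0.39) on slide 2, and -0.55 without the 2 rats, and 1 of 2 other probes had the opposite sign. The control diet stood at 6.64 ± 0.35 and the diet with both changes at 6.99 ± 0.22. The 29 iron and heme genes split into 15 higher and 14 lower. Tfrc, the transferrin receptor for iron uptake, differed by -0.46 (-0.85 to -0.06), with all 6 low copper rats under the high sucrose mean, and its 1 other probe had the opposite sign. Without the 2 rats that stood apart Tfrc differed by -0.28. Hamp, the iron hormone hepcidin, differed by -0.21 (-0.79 to 0.37), or -0.03 without the 2 rats, and the manganese exporter Slc30a10 by 0.06 (-0.43 to 0.55). The 18 genes of zinc transport split into 9 higher and 9 lower, with a median of 0.01.

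Genes of fatty acid synthesis, a main destination of fructose carbon, were also near level. Of 24 lipogenesis genes measured, 13 were higher on low copper and 11 lower, with a median of 0.04, and 0 passed. Fatty acid synthase, Fasn, ran from 2.98 through 4.21 to 5.94 on low copper and from 3.47 through 4.38 to 6.46 on high sucrose. Rats of one diet spread far more than the diets differed, and the difference was -0.16 (-1.21 to 0.89). Without the 2 rats that stood apart, Fasn differed by -0.64 and the lipogenesis median was -0.11. Scd1 differed by -0.06 (-0.78 to 0.66) and Srebf1 by -0.06 (-0.48 to 0.36). The diet with both changes had the highest Fasn mean, 5.26 ± 0.66, against 3.97 ± 0.65 on the control diet. Lpin1, which makes diacylglycerol and also acts on PPAR alpha target genes, differed by 0.60 (-0.19 to 1.40). Pnpla3 was not among the genes tested.

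Genes of fructose and glucose use leaned higher on low copper, 18 of 26, with a median of 0.08 against 0.01 over all genes. On slide 2 it was 24 of 26 with a median of 0.19, where the median of all genes was 0.08, and 17 of 26 with a median of 0.11 after quantile normalization. Pfkfb1, the enzyme that sets fructose 2,6-bisphosphate in liver, ran from 2.79 through 3.35 to 3.87 on low copper and from 2.27 through 2.68 to 3.58 on high sucrose. All but 1 low copper rat lay above the high sucrose mean, and the difference was 0.53 (0.08 to 0.97), or 0.80 (0.15 to 1.45) on slide 2. G6pc, which releases free glucose, differed by 0.49 (-0.05 to 1.04), and the glucose-responsive Txnip by 0.36 (-0.10 to 0.82). Khk, the ketohexokinase that traps fructose, differed by 0.04 (-0.23 to 0.32) and pyruvate kinase, Pklr, by 0.05 (-0.43 to 0.54).

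Cholesterol synthesis was the list that leaned most to one side in the full comparison. Of 27 genes measured, 26 had the lower mean on low copper, against 46.6% of all genes, with a median of -0.18. The single exception was Insig2, and 0 of 27 passed. On slide 2 it was 25 of 27 with a median of -0.20. Genes of one pathway vary together, so these counts are no test. Sqle, squalene epoxidase, ran from -0.42 through 0.54 to 2.70 on low copper and from 0.65 through 1.66 to 2.38 on high sucrose. Low copper rats 2 and 5 were the highest of their diet, and the other 4 lay below every high sucrose rat. The Sqle difference was -0.81 (-1.63 to 0.01), and -1.14 (-2.44 to 0.16) on slide 2.

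Idi1, an isomerase of the isoprenoid steps, differed by -0.53 (-1.09 to 0.04) and the demethylase Cyp51 by -0.45 (-0.96 to 0.07). On slide 2 the differences were -0.65 for Idi1 and -0.45 for Cyp51. Scarb1, the receptor that takes up cholesterol from HDL, differed by -0.27 (-0.57 to 0.04).

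Averaged over the 27 cholesterol synthesis genes, the low copper rats spread from 0.91 through 1.24 to 2.43 and the high sucrose rats from 1.60 through 1.77 to 1.86. The low copper spread (SD 0.59) was wider than that of high sucrose (SD 0.11), the control diet (SD 0.17) and the diet with both changes (SD 0.20), a difference in spread that was not tested. The control mean was 1.27 and the mean with both changes 1.45, so high sucrose had the highest mean of the 4 diets. With each rat left out, the median of the cholesterol synthesis list ran from -0.38, without low copper rat 2, to -0.14, without low copper rat 6. Without the 2 rats that stood apart it was -0.34, with 26 of 27 genes lower, and Sqle differed by -1.03. With slide and the second position number as blocks together, it was -0.06, with 19 of 27 lower.

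**Figure D3:**
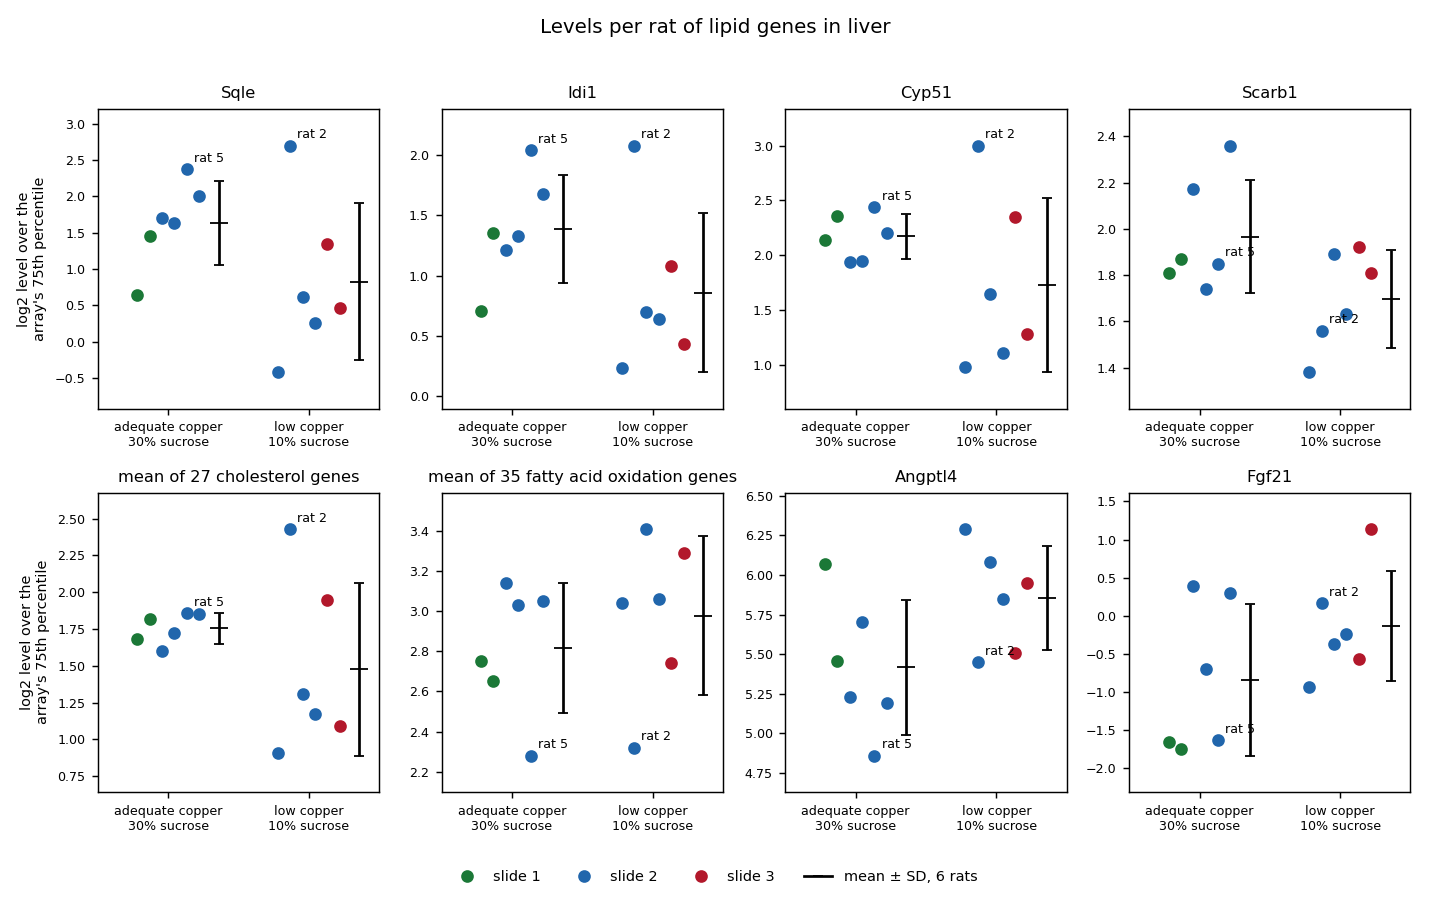
Levels in each rat (log2 over the array's 75th percentile) of 4 cholesterol genes, of the mean over the cholesterol and fatty acid oxidation lists, and of Angptl4 and Fgf21, coloured by slide, with mean and SD over 6 rats. Of 6 low copper rats, 4 lie below all high sucrose rats in the cholesterol mean, and rats 2 and 5 of that diet lie at 2.43 and 1.95.

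Genes of fatty acid oxidation and PPAR alpha targets leaned the other way, with 30 of 35 higher on low copper, a median of 0.10, and 0 passed. Without the 2 rats that stood apart, which were the lowest of their diets in the mean of these genes, the median was 0.14. On slide 2 it was 24 of 35 with a median of 0.06, below the median of 0.08 over all genes there. After quantile normalization on that slide 11 of 35 were higher, with a median of -0.03, so the direction on slide 2 depended on the scaling. Angptl4, an inhibitor of lipoprotein lipase induced in fasting, ran from 5.45 through 5.90 to 6.29 on low copper and from 4.86 through 5.34 to 6.07 on high sucrose. All 6 low copper rats lay above the high sucrose mean, and the difference was 0.44 (0.05 to 0.82), or 0.67 (0.16 to 1.19) on slide 2.

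Fgf21, a hormone of fasting and of sugar intake, ran from -0.93 through -0.30 to 1.14 against -1.75 through -1.16 to 0.39. The difference was 0.71 (-0.10 to 1.52) in full and 0.07 (-0.93 to 1.06) on slide 2, where high sucrose rats 3 and 6 lay above the 4 low copper rats. Acot12, an acetyl-CoA thioesterase, differed by 0.26 (-0.06 to 0.58), and its control mean of 2.21 ± 0.16 was above both diets (1.70 ± 0.45 on low copper, 1.44 ± 0.22 on high sucrose). Cpt1a, the gate of mitochondrial oxidation, differed by 0.05 (-0.49 to 0.59), and the lipid droplet coat gene Plin2 by 0.32 (-0.14 to 0.78). Cyp7a1, the first enzyme of bile acid synthesis, spread from -6.61 to -2.65 on low copper and from -5.35 to -1.31 on high sucrose, and differed by -0.63 (-2.26 to 1.0).

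Inflammatory chemokines and cytokines had lower means on low copper in 22 of 27 genes, with a median of -0.28, and in 20 of 27 on slide 2 with a median of -0.43. None of the 27 passed. Cxcl1, which attracts neutrophils, had the largest difference of the list. It ran from -2.17 through -1.09 to 3.55 on low copper and from 0.97 through 2.50 to 3.77 on high sucrose. Of the low copper rats 4 lay below all high sucrose rats, and rats 2 and 5, at 3.55 and 2.87, lay among them. The difference was -2.33 (-4.50 to -0.15), -2.81 on slide 2, and -2.75 in full without the 2 rats that stood apart. The control diet stood at -1.40 ± 1.69 and the diet with both changes at -1.06 ± 2.20. Without the 2 rats, 21 of the 27 were lower, with a median of -0.45. With each rat left out, the median of the inflammatory chemokines and cytokines ran from -0.55, without low copper rat 2, to -0.08, without high sucrose rat 3, and was -0.13 without low copper rat 6.

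Acute phase genes split 9 higher and 20 lower, with a median of -0.10, and -0.04 without the 2 rats. On slide 2 the acute phase split was 12 higher and 17 lower, with a median of -0.05. Without the 2 rats it was 15 higher and 14 lower on that slide, with a median of 0.03. With each rat left out, the full median of the acute phase genes ran from -0.16 to 0.03, so its sign rested on single rats. Lcn2, a lipocalin that withholds iron from bacteria, ran from -2.71 through -1.51 to 6.36 on low copper and from -2.18 through 0.55 to 8.14 on high sucrose. Low copper rat 2 and high sucrose rat 5 held the highest value of each diet, more than 5 log2 units above the next rat. The Lcn2 difference of -1.56 had an interval of -4.83 to 1.70, and the slide 2 difference was -2.57. In full it was -1.52 without both rats, -2.87 without low copper rat 2 and -0.21 without high sucrose rat 5. Lbp, which presents bacterial lipopolysaccharide, differed by -0.81 (-1.73 to 0.11) and the interleukin 1 antagonist Il1rn by -0.54 (-1.10 to 0.02). Heme oxygenase, Hmox1, differed by -0.48 (-1.18 to 0.22) and the acute phase reductase Steap4 by -0.33 (-1.08 to 0.42). Without both rats the differences were -0.90 for Lbp, -0.59 for Il1rn, -0.57 for Hmox1 and -0.25 for Steap4. Without high sucrose rat 5 alone they were -0.44, -0.38, -0.23 and 0.04 in the same order.

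The neutrophil proteins S100a8 and S100a9 differed by -1.57 (-3.32 to 0.19) and -1.49 (-3.15 to 0.17), and by -2.28 and -2.04 on slide 2. S100a8 ran from -4.24 through -3.70 to 0.19 on low copper and from -3.53 through -2.21 to 3.18 on high sucrose, with the same 2 rats on top. Without both rats the full differences were -1.28 for S100a8 and -1.33 for S100a9. Without high sucrose rat 5 alone they were -0.64 and -0.67, and without low copper rat 2 alone -2.21 and -2.15. Of 10 neutrophil markers measured out of 17, 8 were lower on low copper, and their summed level, as a mean per rat, ran from -3.79 to -1.64 against -3.19 to -1.16. The median of the neutrophil markers was -0.19, and -0.09 on slide 2. In full it was -0.22 without both rats, -0.39 without low copper rat 2, -0.08 without high sucrose rat 5 and -0.04 without low copper rat 6. Mpo, a defining neutrophil enzyme, had the higher mean on low copper. Of 20 Kupffer cell and macrophage markers, 18 were lower, with a median of -0.15, and with mean levels per rat of -1.09 to 0.92 against -0.57 to 0.51. On slide 2 the Kupffer cell split was 12 lower and 8 higher, with a median of -0.04. Without both rats the Kupffer cell and macrophage markers had a median of -0.29 in full and -0.27 on slide 2. It was -0.48 without low copper rat 2, and 0.01 without high sucrose rat 5 or without low copper rat 6, so its direction rested on single rats. The part of these cells in the cytokine and acute phase differences was not tested.

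Interferon response genes leaned toward low copper, 21 of 31, with a median of 0.18 in full and 0.17 on slide 2, and 0 passed. Usp18, a brake on interferon signalling, ran from -1.50 through -0.86 to -0.33 on low copper and from -4.11 through -1.78 to -1.24 on high sucrose. In 5 of 6 low copper rats Usp18 exceeded every high sucrose rat. The difference was 1.21 (0.26 to 2.17), 1.37 on slide 2, and 0.86 in full without the 2 rats, 1 of which was the lowest high sucrose value. Oas1a, a sensor of double-stranded RNA, ran from -0.22 through 0.35 to 0.72 against -2.58 through -0.34 to 0.20. High sucrose rat 5 was again the lowest. The Oas1a difference was 0.96 (-0.13 to 2.05), 1.33 on slide 2, and 0.64 in full without the 2 rats. Irf7 differed by 0.59 (-0.13 to 1.32). Without the 2 rats the interferon response list had 19 of 31 genes higher and a median of 0.06, and on slide 2 it had 15 of 31 higher and a median of -0.05. Without those rats the lean of this list was smaller in full and absent on slide 2. The medians over all genes without them were 0.02 in full and 0.13 on slide 2.

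**Figure D4:**
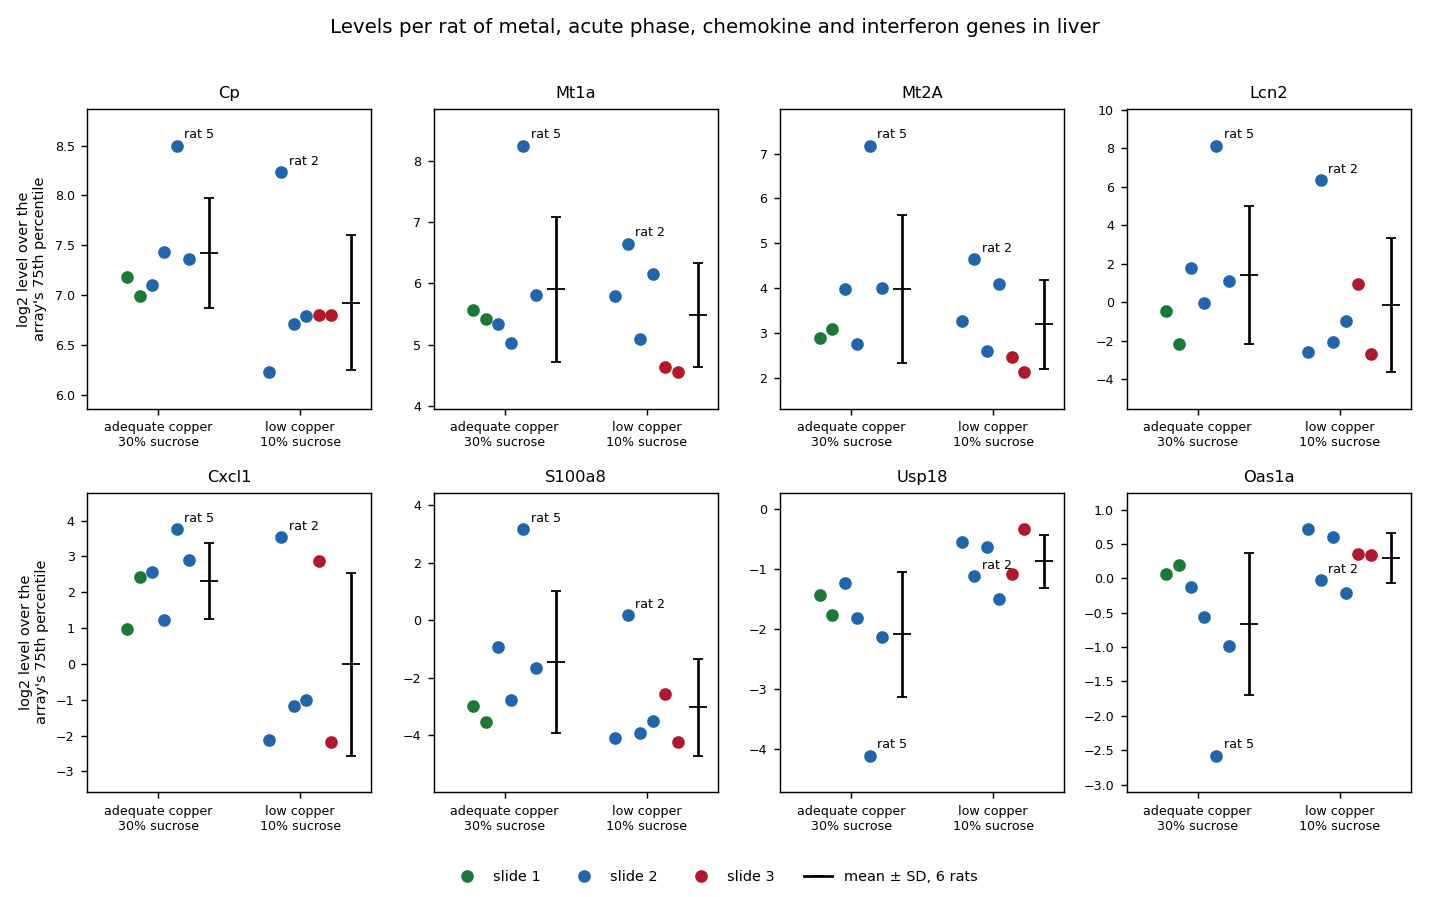
Levels in each rat (log2 over the array's 75th percentile) of 8 metal, acute phase, chemokine, neutrophil and interferon genes, coloured by slide, with mean and SD over 6 rats. Rat 5 on high sucrose and rat 2 on low copper are highest in their diets for Cp, Mt1a, Mt2A, Lcn2, Cxcl1 and S100a8, and rat 5 is lowest of all for Usp18 and Oas1a.

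Genes of amino acid breakdown and hormone signalling leaned toward low copper. Of 32 genes of the urea cycle and amino acid breakdown, 25 were higher, with a median of 0.11. Glul, glutamine synthetase of the hepatocytes around the central vein, ran from 0.97 through 1.31 to 2.01 on low copper and from 0.53 through 0.85 to 1.34 on high sucrose. All 6 low copper rats lay above the high sucrose mean, and the difference was 0.53 (0.05 to 1.01), or 0.67 (0.15 to 1.19) on slide 2. In the insulin and growth hormone axis 18 of 22 were higher. Egfr, the growth factor receptor, ran from 2.88 through 3.21 to 3.44 against 1.94 through 2.60 to 3.56 and differed by 0.50 (0.04 to 0.96). Igfbp1, a binding protein that insulin represses, differed by -0.68 (-1.41 to 0.05). Cyp2c13, a male-specific cytochrome of rat liver, differed by 0.28 (0.00 to 0.55).

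Respiratory chain genes, among them subunits of the copper enzyme cytochrome c oxidase, had small differences, mostly of one sign. Of 39 measured, 32 were higher on low copper, with a median of 0.05, and 36 on slide 2 with a median of 0.11. Quantile normalization left 27 of 39 higher on slide 2, with a median of 0.05. The hepatocyte markers split into 16 higher and 6 lower, with a median of 0.06. Markers of T, B and NK cells, 19 of 26 measured, were split 10 to 9 in full. On slide 2 all 19 were higher, with a median of 0.29, but so were 12347 of all 18641 genes, with a median of 0.08. The markers were dim, with mean levels per rat of -4.10 to -2.50 on low copper and -3.64 to -2.94 on high sucrose. Among the 6213 dimmest genes the slide 2 median was 0.19. After quantile normalization on that slide, 15 of the 19 markers were higher, with a median of 0.22 against 0.00 over all genes. Of 10 red blood cell genes, 8 were lower on low copper, with a median of -0.25, and 0.03 without the 2 rats, and their mean level per rat ran from -0.10 to 1.08 against -0.54 to 1.97. The control rats lay between -1.01 and 0.16 for the same red blood cell genes. Stellate cell and fibrosis genes split 10 higher and 18 lower, with a median of -0.08, and -0.05 without the 2 rats. On slide 2 the stellate cell split was 14 to 14, and 15 higher to 13 lower without the 2 rats. With each of the 12 rats left out in turn, 14 of the 33 list medians kept their sign, 10 higher and 4 lower on low copper. Some of those 14 changed sign with slide and the second position number as blocks together. The medians were then 0.17 for circadian clock genes, -0.16 for bile duct and progenitor markers and -0.02 for bile acid genes.

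**Figure D5:**
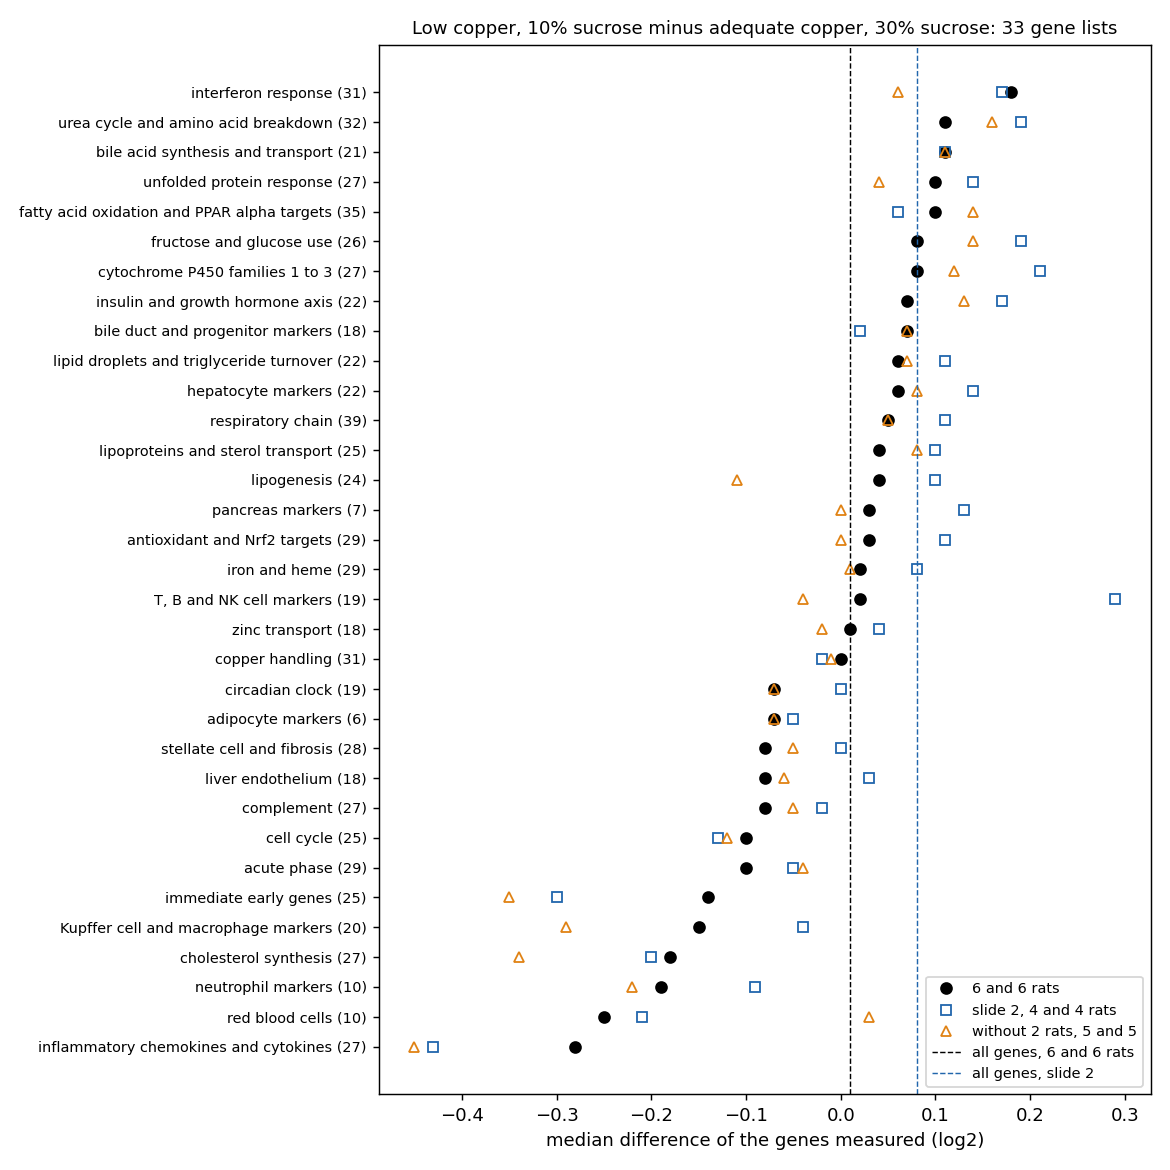
Median difference of the genes measured in 33 lists (number of genes in brackets; horizontal axis, log2, low copper minus high sucrose) over 6 and 6 rats, on slide 2 and without 2 rats, with the medians of all genes as dashed lines. Cholesterol synthesis and chemokines lie below 0 in all 3, as do other lists, among them immediate early genes, cell cycle genes, neutrophil markers, Kupffer cell markers and acute phase genes. The T, B and NK cell markers lie at 0.29 on slide 2, at 0.02 over 6 and 6 rats and at -0.04 without 2 rats.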

How the data were processed

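Liver RNA of 24 rats was hybridised to one-colour Agilent arrays, 1 per rat. Per the submitters' processing notes and the file headers, the authors extracted spots with Agilent Feature Extraction 10.7.3.1 (GE1_107_Sep09 settings), and probe coordinates are those of rn4. The processed signal deposited by the authors is an intensity that, per the file headers, had background removed and spatial trends corrected on each array but was not scaled across arrays. The table of the authors holds a score with a median of 0 on every array, quantile-normalized, whose scale is not stated. The deposited spot marks are of the unit other and served as marks only.

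Of 62976 spots, 4259 were controls, and spots marked as non-uniform or outliers (0.652%) were left out. The log2 processed signal minus the array's 75th percentile was averaged per probe. A probe was kept if well above background on at least 6 arrays (21179 of 30367 probes), and the brightest stood for each gene name. This gave 18641 genes. Current symbols were matched through transcript accessions for 18004 probes, 13211 of them kept.

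All 24 arrays entered 1 fit in limma 3.58.1 (R 4.3.3) that estimated each diet separately; tests were moderated and two-sided, and p-values were adjusted over all genes by Benjamini-Hochberg, with calls at 0.05. The same was done on slide 2 alone. Intervals are 95% intervals of the difference between the diet means, and the number of arrays limits their precision. They rest on the spread between rats, taken as 1 value per gene for all diets in the fit, and do not cover the range of single rats. The fit was tested on simulated data. The members and the 33 lists were chosen with earlier results of these data known. Genes were named by a rule: the 10 smallest p each way in full (same sign on slide 2, well above background in all 6 rats of a diet) and the 5 smallest on slide 2, up to 4 smallest per list, and 28 fixed genes, of which 27 were measured. This gave 173 genes, of which the text describes a selection. For 25 named genes further probes were kept, which all shared the sign in 20. Saturation affected 0 of the named genes.

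Alternatives were normexp (offset 50), quantile normalization, the authors' score put on a signal scale (times 662, plus 80.4, floor 5), 2 other filters, slide as a fixed or random block, position numbers as blocks, the rat number as a block, averaging a gene's probes, array weights, a trend of variance with intensity, a minimum change of 1.5 times, only the 12 arrays, and leaving out each rat. Added after the first results were the second position number, alone and with the slide, as a block, and leaving out 2 rats picked because their acute phase genes stood apart. Same-numbered rats were not paired (correlations of deviations from -0.28 to 0.30). Figures were drawn with matplotlib 3.10.9.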

Additional observations from a re-analysis of the deposited data

Results flagged for a closer look

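In 138 groups of 6 rats (69 genes, both diets), 15 had 1 rat far outside the other 5 (10.9%), by the gap to the nearest rat as a share of the range. Chance gives about 1 in 20 for independent groups. Here the same rats recur, and the genes vary together and were partly chosen from these data, so the share is no test of an excess. Rat 5 on adequate copper with 30% sucrose held 8 of the 15. Its level was highest of its diet for Cp (8.50), Mt1a (8.25), Mt2A (7.18), Il1rn (3.0) and Lbp (4.69), and lowest for Car8 (1.71), Rbp7 (-4.75) and Usp18 (-4.11). Rat 2 on low copper with 10% sucrose held 4, with the highest Cp (8.23), Steap4 (3.14) and Hmox1 (1.0) and the lowest Hamp (6.02) of its diet. The others were rat 6 on low copper for Trpv4 (-3.88, lowest), rat 1 on low copper for Cyp7a1 (-6.61, lowest) and rat 1 on adequate copper with 30% sucrose for Fasn (6.46, highest).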

How the results depend on the processing

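In the full comparison 0 genes passed under all 31 other settings, with 199 to 1413 genes at an unadjusted p under 0.05 and a lowest adjusted p in limma of 0.339, with slide and second position number as blocks. On slide 2, 0 genes passed except in a pair of settings. With the rat number as a replicate block, 227 genes passed, 1 residual degree of freedom was left and the estimate rested on numbers 3 and 4, the only ones both diets had there. Leaving out the 2 rats that stood apart, 1 gene passed on slide 2, Rhoc, a small GTPase of cell migration (-1.80, limma adjusted p = 0.0295, against -0.71 in full). With each rat left out the count was 0 in both comparisons. In the full comparison the replicate block gave 0 genes too.

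Of the 69 genes the settings were run for, 54 kept their sign in all. With slide as a block, with slide and first position number, and on slide 2 alone, the values were -0.20 for Cpt1a, 0.10 for Fasn, 0.09 for Scd1 and -0.09 for Slc31a1. With slide and second position number they were 0.08 for Ccs, -0.22 for Cpt1a, 0.48 for Fasn, -0.02 for G6pc and 0.10 for RGD1310587. Slc31a1 was -0.03 with quantile normalization and with the authors' values, -0.02 with normexp and 0.00 with slide as a random block. Further reversals were 0.02 for Atp7b (mean of probes), 0.02 for Ccs (second position number), -0.03 for Cpt1a (array weights), -0.18 for Pklr (without 2 rats) and -0.01 for Slc30a10 (normexp). With each rat left out, differences ran from -0.06 to 0.04 for Atp7b, -0.11 to 0.05 for Ccs, -0.06 to 0.21 for Cpt1a, -0.48 to 0.23 for Fasn, -0.03 to 0.14 for Khk, -0.65 to 0.05 for Mt1a, -0.11 to 0.19 for Pklr, -0.42 to 0.19 for Scd1, -0.11 to 0.21 for Slc30a10, -0.04 to 0.08 for Slc31a1, -0.01 to 0.09 for Sod1, -0.13 to 0.03 for Srebf1 and -0.62 to 0.04 for Steap4. The cause of these reversals was not tested. Over all lists and settings of the full comparison, a list median moved by at least the SD between rats of its mean level in 6 cases. Except for the lipid droplet list without low copper rat 2, all were with slide and second position number as blocks. The alternatives reuse the same arrays or a part of them. In simulated data of slide 2, with 4 rats a diet and no rats that stand apart, 31.3% of changes of 1 log2 unit were found.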

Other observations

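Cell types beyond those described above differed little between both diets. Bile duct and progenitor markers were higher on low copper in 14 of 18 genes with a median of 0.07, and in 10 of 18 on slide 2. After quantile normalization on that slide 5 of the 18 were higher, with a median of -0.07. With slide and the second position number as blocks together, 6 of the 18 were higher, with a median of -0.16. Liver endothelium markers split 6 higher and 12 lower, with a median of -0.08, and 10 to 8 on slide 2. Without the 2 rats that stood apart the endothelium median was -0.06 in full and 0.05 on slide 2. Complement genes, mostly made by hepatocytes, were lower in 20 of 27 with a median of -0.08, and in 14 of 27 on slide 2. Without the 2 rats the complement median was -0.05 in full. On slide 2 without them, 12 of 27 were lower, with a median of 0.03. Immediate early genes, which respond to stimuli within minutes, were lower in 18 of 25 with a median of -0.14 in full and -0.30 on slide 2. With slide and the second position number as blocks together, 16 of the 25 were higher, with a median of 0.13. With each rat left out, the full median of the immediate early genes ran from -0.29 to 0.00. Bile acid genes were higher in 13 of 21 with a median of 0.11, and unfolded protein response genes in 18 of 27 with a median of 0.10. In none of these lists did a gene pass the threshold in limma, where 294 of 18641 genes had an unadjusted p under 0.05.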
